A study of Mus musculus with 6 samples.

Results

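Proteasome genes were measured in liver RNA of adult female mice of the inbred strains SM/J (SM) and NZB/BinJ (NZB). The members were all genes whose symbol begins with Psm, a letter from a to g and a digit, read through probe sets that the platform's annotation pairs with that gene alone. There were 49 such genes of 18193 measured, read by 103 of 45037 probe sets, and each gene was represented by its probe set with the highest mean over all 6 arrays. The groups were 3 untreated SM mice and 3 untreated NZB mice, with 1 array per mouse. All mice were 8 weeks old, ate chow from weaning at 3 weeks, and went 4 hours without food before dissection. Their livers were perfused with 50 mL of saline. The mice differed in their whole inbred background, and the labels name no other allele or agent.

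The proteasome is the protease complex that degrades proteins tagged with ubiquitin. A barrel-shaped core of alpha and beta subunits cuts the protein, and a cap of ATPases and other subunits recognises and unfolds it. Of the beta subunits, Psmb5, Psmb6 and Psmb7 hold the cutting sites of the constitutive form. Interferon gamma induces Psmb8, Psmb9 and Psmb10, which take the places of Psmb5, Psmb6 and Psmb7 in newly built particles, called immunoproteasomes. These are abundant in cells of the immune system and are known for making peptides for presentation on MHC class I molecules.

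The arrays had medians of 6.60 to 6.66 on the log2 scale, and their number limits the precision of every value. Hepatocyte markers read up to 14.9, which fits the labelled tissue. SM replicate 2 read 7.32 for Xist, the RNA of the inactive X chromosome, where the other 5 arrays read 12.6 to 12.9. The 3 Y-linked genes measured read at most 5.40 in that array and at most 5.67 in any other. Calls of members and pathway genes that ended without SM replicate 2 are therefore marked as such. The pairs, set medians, array pattern and cell markers below are not given without it.

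All 3 immunoproteasome subunits were higher in NZB liver, and so was Psmb6, one of the constitutive catalytic subunits. Psmb9 was 1.38-fold higher, Psmb8 1.26-fold higher, Psmb10 1.18-fold higher and Psmb6 1.68-fold higher. Among all members NZB was higher for 7 genes and lower for 4, and the test was not passed by 38. A member is called higher or lower where the Benjamini-Hochberg adjusted p of the limma fit over all 18193 genes was under 0.05. By that rule 21.0% of all genes were called, 8.47% higher and 12.6% lower, so the share of members called, 22.4%, lay near the background. The arrays of the strains did not overlap for 10 members with NZB above and 7 with NZB below. Of all genes, 39.4% did not overlap, 19.6% with NZB above and 19.7% with NZB below. The median difference over the members, NZB minus SM, was -0.012 on the log2 scale, beside 0.021 over all genes.

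**Figure D1:**
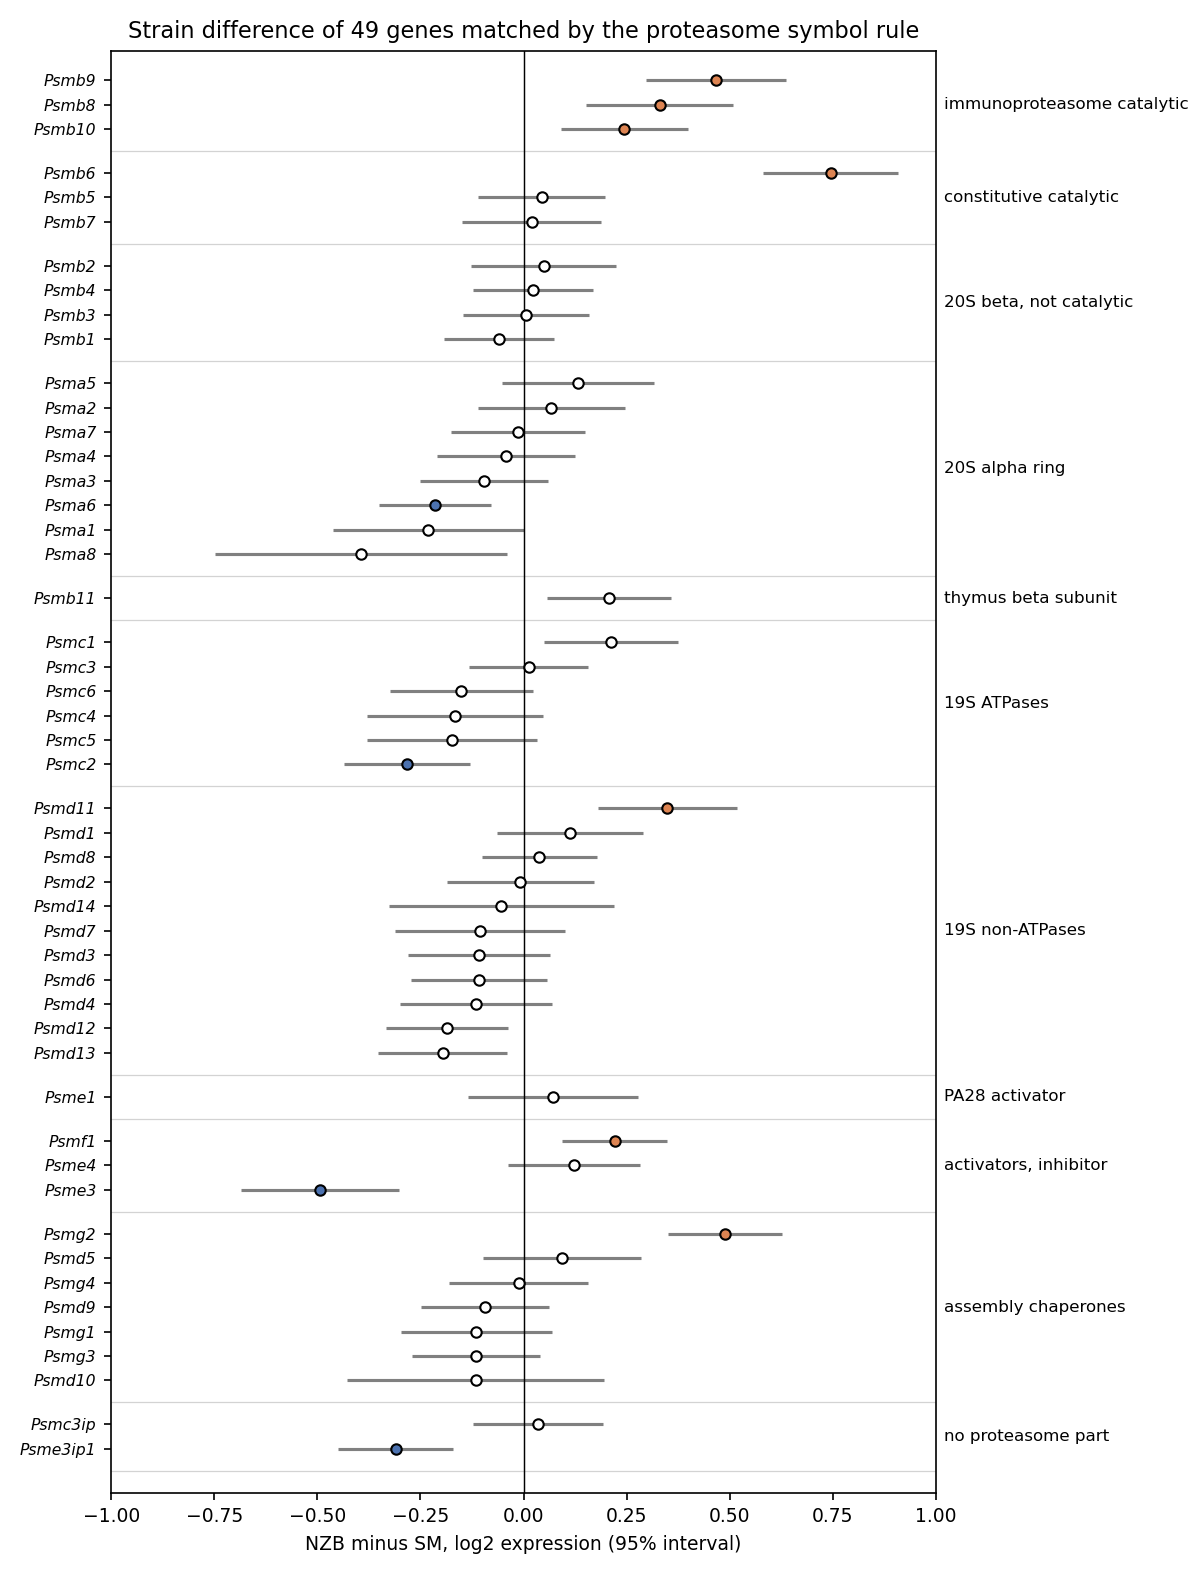
Difference in log2 expression, NZB minus SM, for each of the 49 genes, with the 95% interval of the limma fit, in blocks by role. Orange points passed the threshold as higher in NZB (7 genes), blue points as lower (4 genes) and white points did not pass. Psmb6 lies farthest to the right at 0.74 and Psme3 farthest to the left at -0.49.

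Psmb9, which replaces Psmb6, read 8.70, 8.61 and 8.63 in SM replicates 1, 2 and 3 and 8.98, 9.15 and 9.22 in the 3 NZB mice. Every NZB array lay above every SM array. The difference was 0.47 on the log2 scale (SE 0.075, adjusted p = 0.0026). It stayed past the threshold in each of the 15 alternative fits, with differences of 0.42 to 0.55, and was 0.45 without SM replicate 2 (adjusted p = 0.0153). Psmb9 has only 1 probe set, so the fits that average or drop probe sets used the same readings of it.

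Psmb8, which replaces Psmb5 at the chymotrypsin-like site, read 9.37, 9.45 and 9.28 in SM and 9.57, 9.72 and 9.80 in NZB. The strains again did not overlap. The difference was 0.33 (SE 0.079, adjusted p = 0.0174), and 0.37 without SM replicate 2 (adjusted p = 0.0292). The call ended without NZB replicate 2 (0.32, adjusted p = 0.0560), without NZB replicate 3 (0.28, adjusted p = 0.0720) and with the mean of its probe sets (0.21, adjusted p = 0.0720), since its other probe set read 4.95 in SM and differed by 0.082.

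Psmb10, which replaces Psmb7 at the trypsin-like site, read 9.998, 9.89 and 9.86 in SM and 10.07, 10.18 and 10.22 in NZB. The gap between the highest SM array and the lowest NZB array was narrow, but the strains did not overlap. The difference was 0.24 (SE 0.069, adjusted p = 0.0331). Its call ended without SM replicate 2 (adjusted p = 0.107), SM replicate 3 (0.0765), NZB replicate 2 (0.0968) or NZB replicate 3 (0.117), where the differences were 0.21 to 0.23. It also ended with the array medians aligned (0.21, adjusted p = 0.0650).

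The constitutive counterparts were not alike. Psmb6, the subunit of the caspase-like site, read 10.35, 10.22 and 10.19 in SM and 10.92, 11.10 and 10.97 in NZB. This gap between strains was the largest among the 49 genes, at 0.74 (SE 0.073, adjusted p = 0.00017), and lay between 0.69 and 0.81 in all 15 alternative fits. Psmb5 read 11.49, 11.48 and 11.31 in SM and 11.44, 11.51 and 11.47 in NZB, with a difference of 0.044 (95% interval -0.11 to 0.20). Psmb7 read 12.32, 12.26 and 12.07 in SM and 12.25, 12.21 and 12.26 in NZB, with a difference of 0.020 (95% interval -0.15 to 0.19). Neither passed the test (adjusted p = 0.696 and 0.882), and in both genes the lowest reading was SM replicate 3.

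**Figure D2:**
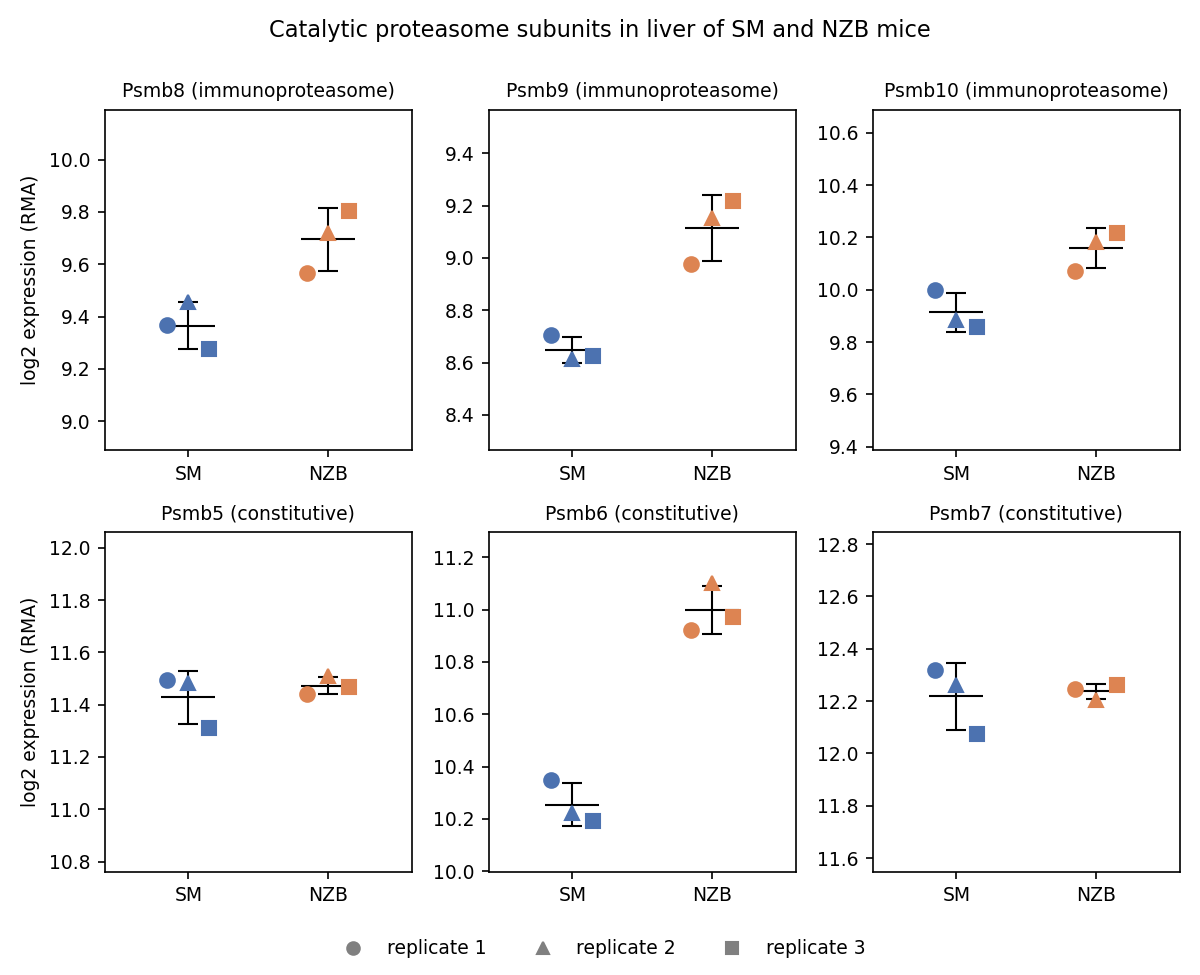
Log2 expression of the 6 catalytic subunits in each mouse, with a marker shape for each replicate number, the mean as a horizontal line and the SD (n = 3) as bars. Each panel has its own axis, and all span 1.3 log2 units. The strains are separate for Psmb8, Psmb9, Psmb10 and Psmb6 and overlap for Psmb5 and Psmb7.

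Each immunoproteasome subunit was next set against the subunit it replaces, within each array. The level of such a difference has no meaning, because probe sets bind with different strength. Its change between strains sets the strain differences of the paired genes side by side, and compression or saturation of probe sets can alter it. Psmb8 minus Psmb5 was -2.13, -2.03 and -2.04 in SM and -1.88, -1.79 and -1.66 in NZB. The NZB arrays were all higher, by 0.29 on average (SD 0.055 in SM and 0.11 in NZB, n = 3 each). Psmb10 minus Psmb7 was -2.32, -2.37 and -2.22 in SM and -2.18, -2.02 and -2.04 in NZB, higher by 0.22 (SD 0.080 and 0.084). Psmb9 minus Psmb6 went the other way. It was -1.64, -1.61 and -1.57 in SM and -1.95, -1.95 and -1.76 in NZB, lower by 0.28 (SD 0.039 and 0.11). In each of the 3 pairs the strains did not overlap. The pairs are given as values, and their changes were not tested.

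**Figure D3:**
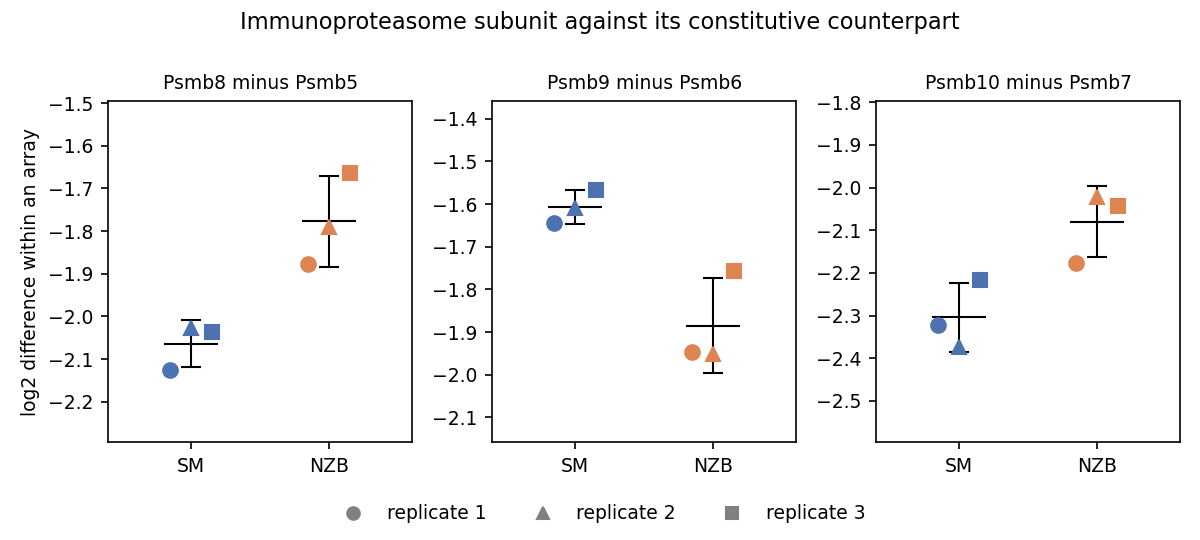
Log2 expression of each immunoproteasome subunit minus that of its constitutive counterpart in the same array, per mouse, with the mean and SD (n = 3). The NZB mice lie above the SM mice for Psmb8 minus Psmb5 (by 0.29) and Psmb10 minus Psmb7 (by 0.22) and below them for Psmb9 minus Psmb6 (by 0.28 in size).

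Psmb9 and Psmb8 lie close together in the MHC class II region of chromosome 17, in the gene order Psmb9, Tap1, Psmb8, Tap2. Tap1 and Tap2 encode the partner chains of the transporter that carries peptides into the endoplasmic reticulum. Tap1 was 0.36 higher in NZB (SE 0.064, adjusted p = 0.0040), while Tap2 differed by -0.041 (SE 0.062, adjusted p = 0.690). With the mean of its probe sets, Tap1 differed by 0.082 (adjusted p = 0.2995). Psmb9 and Tap1 are read from opposite strands, and the 250 bases before their starts share 225 bases. Psmb6 lies on chromosome 11, where its nearest measured neighbours to one side, Pld2 and Mink1, differed by 0.00059 and 0.018 (adjusted p = 0.996 and 0.865). To the other side Tm4sf5 differed by -0.13 (adjusted p = 0.407). The other measured genes within 3 places of Psmb9 or Psmb8 belong to MHC class II presentation. Of these, H2-DMa was 0.34 higher in NZB (SE 0.093, adjusted p = 0.0309) and H2-Ab1 0.80 higher (SE 0.23, adjusted p = 0.0360), while H2-DMb2 and H2-Ob differed by -0.090 and -0.11 and did not pass. Both class II calls ended without SM replicate 2 (adjusted p = 0.111 and 0.131), SM replicate 3 (0.0592 and 0.0755) or NZB replicate 3 (0.106 and 0.128). That of H2-DMa also ended without NZB replicate 1 (0.0935), with aligned array medians (0.0560) and with the mean of its probe sets (0.118). That of H2-Ab1 also ended without NZB replicate 2 (0.0907), with trended, robust variances (0.135) and in the fit over all probe sets (0.0501). Psmb10 lies on chromosome 8, where Pskh1, within 3 places of it, was lower in NZB (-0.19, adjusted p = 0.0451). The other measured genes that near to Psmb10, Nrn1l, Ctrl, Lcat, Slc12a4 and Dpep3, differed by -0.067 to 0.14 and did not pass. The neighbours of Psmb9, Psmb8, Psmb6 and Psmb10 were chosen after their values were seen.

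The promoters of the catalytic genes with the largest differences are shown as the 250 bases before each RefSeq start (GRCm38.p6), on the gene's strand. Capitals mark the matches to 3 motifs searched on both strands. These were the core of the interferon-stimulated response element (a run of GAAA, any 2 bases, and GAAA again), the STAT site core TTCNNNGAA, and the core TGANNNNGC of the antioxidant response element, through which Nfe2l1 raises constitutive subunits. No marked matches overlap.
Psmb9, chr17:34187331-34187580, minus strand: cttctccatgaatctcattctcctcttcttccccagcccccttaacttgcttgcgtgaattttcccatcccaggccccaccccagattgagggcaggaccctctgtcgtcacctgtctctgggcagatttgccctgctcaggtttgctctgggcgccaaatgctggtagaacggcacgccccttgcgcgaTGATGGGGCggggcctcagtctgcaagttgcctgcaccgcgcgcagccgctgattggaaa
Psmb8, chr17:34197945-34198194, plus strand: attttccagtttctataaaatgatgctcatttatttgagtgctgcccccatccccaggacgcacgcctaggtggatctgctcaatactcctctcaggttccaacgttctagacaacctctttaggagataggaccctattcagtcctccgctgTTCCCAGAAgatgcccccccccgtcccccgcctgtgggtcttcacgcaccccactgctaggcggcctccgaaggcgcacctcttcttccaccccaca
Psmb6, chr11:70525107-70525356, plus strand: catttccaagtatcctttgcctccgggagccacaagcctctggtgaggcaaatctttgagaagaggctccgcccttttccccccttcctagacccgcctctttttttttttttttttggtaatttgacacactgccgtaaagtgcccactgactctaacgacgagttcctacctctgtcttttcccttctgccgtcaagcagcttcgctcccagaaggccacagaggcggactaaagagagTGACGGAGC
The Psmb8 window held 1 match to TTCNNNGAA, from base 154, and the windows of Psmb9 and Psmb6 each held 1 match to TGANNNNGC, from bases 191 and 242. Of the 49 members, 41 had a promoter in the table. The interferon-stimulated core was found in 3 of these genes (Psmb3, Psmd4 and Psmd9), TTCNNNGAA in 2 (Psmb8 and Psmg1) and TGANNNNGC in 17. Over all 32851 promoters of this length the shares were 2.98%, 7.02% and 35.2%. These shares are per promoter, while the member counts are per gene, with 44 promoters for the 41 genes. A match describes the letters only.

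For the rest of the core particle, the share to compare is the 21.0% of all genes that were called, and no test compared the shares. The 4 beta subunits without a cutting site, Psmb1, Psmb2, Psmb3 and Psmb4, differed by -0.060 to 0.049, and limma called 0 of them (0 at an unadjusted p under 0.05, which 34.5% of all genes reached). The largest of these differences was that of Psmb1, which read 11.65, 11.59 and 11.56 in SM and 11.52, 11.54 and 11.56 in NZB, with overlap (adjusted p = 0.515). Of the 8 alpha subunit genes, 1 (12.5%) was lower in NZB and 7 did not pass. Psma6, whose product is part of the alpha ring that gates the core, read 11.84, 11.83 and 11.73 in SM and 11.59, 11.59 and 11.56 in NZB. The NZB arrays all lay below the SM arrays, by 0.22 (SE 0.060, adjusted p = 0.0324). Leaving out any single array other than SM replicate 3 ended this call (adjusted p = 0.0742 to 0.108). So did averaging its probe sets (0.0656) and dropping marked probe sets, those whose ID ends in a letter before _at (0.142). Psma8, the alpha subunit of testis, was near background at 6.33, 5.82 and 5.57 in SM and 5.53, 5.46 and 5.55 in NZB. It differed by -0.39 (SE 0.16, adjusted p = 0.110), and by -0.56 without SM replicate 3 (adjusted p = 0.0165) and -0.18 without SM replicate 1 (adjusted p = 0.198). Psmb11, the beta subunit of thymus epithelium, read low as well, at 6.28, 6.29 and 6.40 in SM and 6.61, 6.48 and 6.49 in NZB. Its difference of 0.21 (SE 0.067) missed the threshold (adjusted p = 0.0558) and passed it without SM replicate 3 (adjusted p = 0.0407), with array weights (0.0281) and in the fit on mean probe set values (0.0433).

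In the cap, 1 of 6 ATPase genes was lower in NZB and 1 of 11 other subunit genes was higher. Over these 17 genes the called share was 11.8%, beside 21.0% of all genes. Psmd11, a scaffold subunit of the lid, read 11.57, 11.57 and 11.39 in SM and 11.77, 11.92 and 11.88 in NZB. The arrays did not overlap, and it was 1.27-fold higher in NZB (0.35, SE 0.075, adjusted p = 0.0104). With the mean of its probe sets the difference was 0.22 (adjusted p = 0.0210). Psmc2, an ATPase of the ring that unfolds substrates, read 11.34, 11.27 and 11.28 in SM and 10.91, 11.09 and 11.05 in NZB. It was 1.22-fold lower (-0.28, SE 0.068, adjusted p = 0.0170), without overlap. Quantile normalization ended the call of Psmc2 (-0.22, adjusted p = 0.0542), as did leaving out NZB replicate 1 (-0.23, adjusted p = 0.0564). Without SM replicate 2 the Psmc2 difference was -0.29 (adjusted p = 0.0492). Among the members that did not pass, Psmc1 differed by 0.21 (adjusted p = 0.0667), Psmd13 by -0.20 and Psmd12 by -0.19 (both adjusted p = 0.0774), each without overlap of the strains. The other 12 cap genes overlapped between strains and differed by -0.17 to 0.11. Of all genes, 39.4% did not overlap.

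As a set of 31 genes, the constitutive core and cap subunits had 2 members higher in NZB (Psmb6 and Psmd11), 2 lower (Psma6 and Psmc2) and 27 not past the test. Their share of calls, 12.9%, stood beside 21.0% of all genes. Their median difference was -0.043, within 0.05 of 0, and it was -0.0061 after quantile normalization and -0.075 with the array medians aligned. It changed sign with the mean of probe sets (0.0033), without marked probe sets (0.012) and without SM replicate 1 (0.023). The 3 immunoproteasome subunits had a median of 0.33, and each of them was above 0 in every fit that gave a value.

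The constitutive subunits also varied together among the mice of a strain. SM replicate 1 had the highest and SM replicate 3 the lowest reading of the SM arrays for 26 of the 31 genes, 83.9%, against 23.5% of all genes. The median deviation of the 31 genes from their mean over all arrays was 0.11 in SM replicate 1, 0.034 in SM replicate 2 and -0.099 in SM replicate 3, where the same medians over all genes were 0.0015, -0.016 and -0.0012. Among the NZB mice, replicate 1 was lowest for 25 of the 31 genes, against 36.7% of all genes, and its median deviation was -0.064. The NZB arrays were closer together, with a median SD of 0.060 over the 31 genes against 0.11 in SM. Over all genes the median SD was 0.075 in NZB and 0.083 in SM. This pattern was noticed in the data and has no test.

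**Figure D4:**
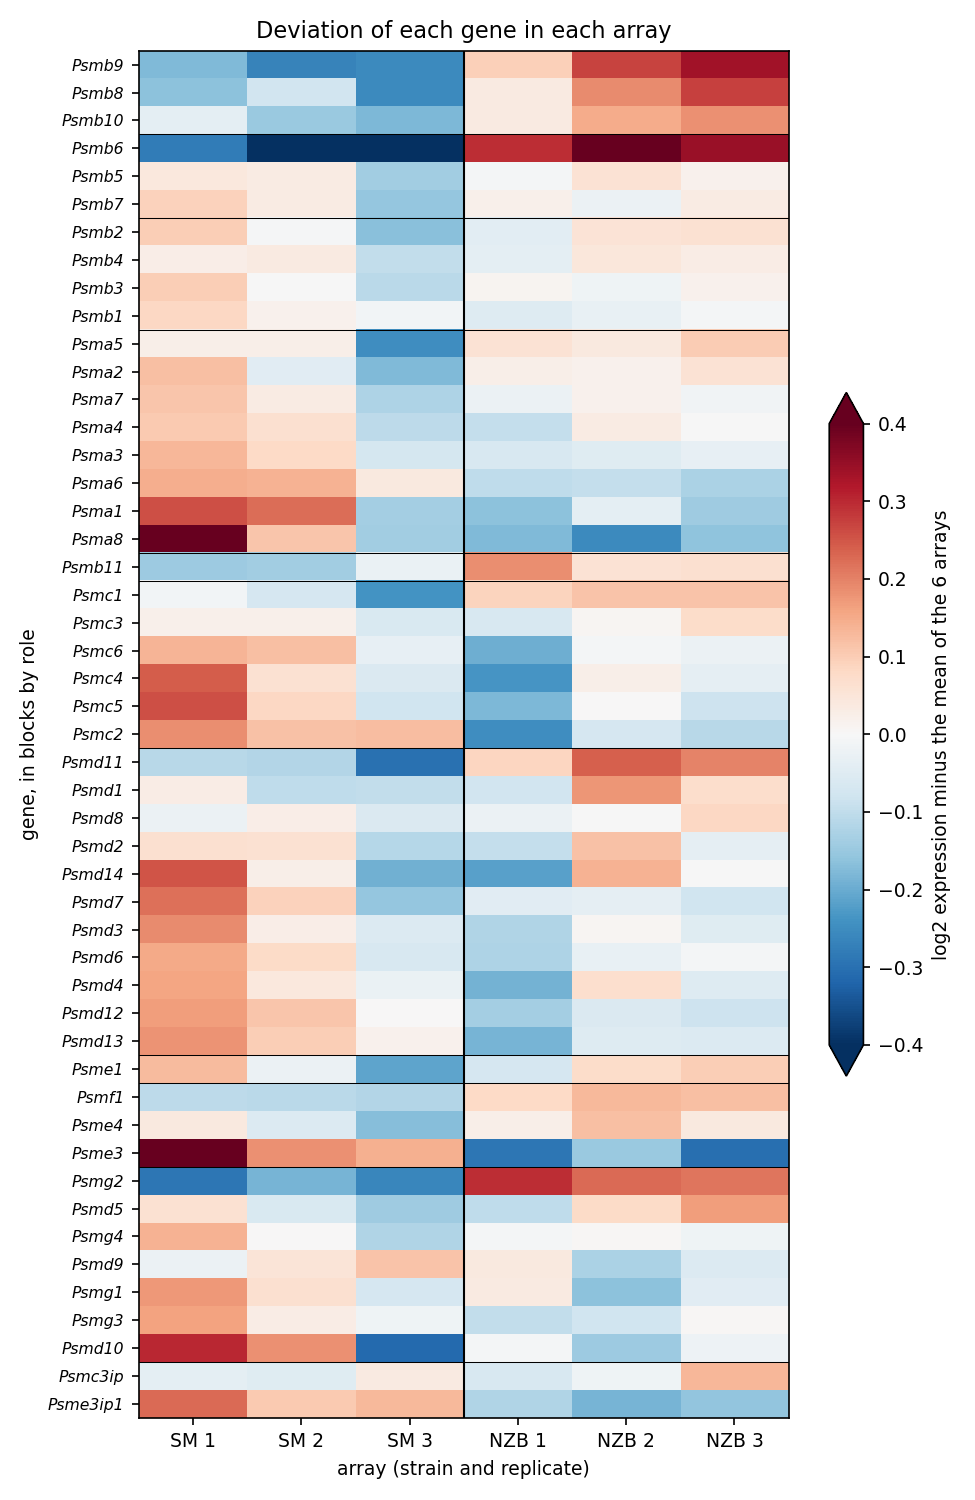
Log2 expression of each of the 49 genes in each array, minus the gene's mean over the 6 arrays, in blocks by role (colours end at 0.4 in size, and Psmb6, Psma8 and Psme3 pass that in places). Psmb9, Psmb8, Psmb10, Psmb6, Psmd11, Psmg2 and Psmf1 are among the genes that are red in all NZB arrays. Most core and cap subunits are red in SM replicate 1 and blue in SM replicate 3.

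The activators and the inhibitor, which bind the ends of the core, went in different directions. Psme3, the nuclear activator that works without ubiquitin, read 9.68, 9.44 and 9.40 in SM and 8.97, 9.11 and 8.96 in NZB. NZB was 1.41-fold lower, without overlap of the arrays (-0.49, SE 0.085, adjusted p = 0.0036). Its call held in all 15 alternative fits, and with the mean of its probe sets the difference was -0.27. Psme1, the interferon-inducible alpha subunit of the PA28 activator, read 11.12, 10.97 and 10.78 in SM and 10.93, 11.07 and 11.09 in NZB. The strains overlapped, and the difference was 0.071 (95% interval -0.14 to 0.28, adjusted p = 0.628). Its partner Psme2 was outside the members, since its only probe set is paired with Psme2b as well. That probe set read 11.02, 10.88 and 10.76 in SM and 10.64, 10.64 and 10.66 in NZB, a difference of -0.24 (SE 0.075, adjusted p = 0.0637 over all probe sets). Neither reading of this activator passed the threshold. Psmf1, an inhibitor of the core, read 9.56, 9.56 and 9.55 in SM and 9.75, 9.80 and 9.79 in NZB. It was 1.17-fold higher (0.22, SE 0.057, adjusted p = 0.0226). Its call ended without SM replicate 2 (0.0705), NZB replicate 2 (0.0729) or NZB replicate 3 (0.0740), and with the mean of its probe sets the difference was 0.00041 (adjusted p = 0.996). Psme4, the activator with a role in sperm and DNA repair, differed by 0.12 (SE 0.071, adjusted p = 0.258).

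Of the 7 assembly chaperones, 1 was higher in NZB and 6 did not pass. That share, 14.3%, stood beside 21.0% of all genes called. Psmg2, which forms a pair with Psmg1 to build the alpha ring, read 9.05, 9.15 and 9.08 in SM and 9.63, 9.56 and 9.55 in NZB. The groups were well apart, and Psmg2 was 1.40-fold higher (0.49, SE 0.062, adjusted p = 0.0007) and past the threshold in all 15 alternative fits. With the mean of its probe sets the difference was 0.30 (adjusted p = 0.0099). Its partner Psmg1 overlapped between strains and differed by -0.11 (SE 0.081, adjusted p = 0.356). The others, Psmg3, Psmg4, Psmd5, Psmd9 and Psmd10, differed by -0.12 to 0.094. A pair of genes carry matching symbols without being part of the particle. Psme3ip1, which encodes a binding partner of the Psme3 protein, read 9.31, 9.19 and 9.21 in SM and 8.96, 8.90 and 8.93 in NZB. NZB was 1.24-fold lower, without overlap (-0.31, SE 0.062, adjusted p = 0.0074). Psmc3ip, a meiotic recombination factor, differed by 0.036 (adjusted p = 0.761).

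Of the 49 genes, 27 had several probe sets, and in 17 of these every other probe set had the sign of the brightest. Over all 103 member probe sets 9 were higher in NZB and 10 lower, 18.4% in all. Of all probe sets 14.8% were called, 6.09% higher and 8.69% lower. Psmd11 had 8 probe sets, all with a positive difference from 0.036 to 0.47, of which 2 passed. Of the 3 probe sets of Psmg2, 2 passed, and so did 2 of the 3 of Psmc2. For Psme3 the other probe sets differed by -0.20 and -0.11 and did not pass. Psmf1 was the called gene whose probe sets disagreed in sign, with -0.17 to -0.021 in its 3 others. For 5 genes a dimmer probe set was lower in NZB while the brightest did not pass. These probe sets differed by -0.49 in Psmd9, -0.46 in Psmd13, -0.34 in Psme4, -0.27 in Psma1 and -0.26 in Psma3 (adjusted p = 0.0102, 0.0211, 0.0262, 0.0270 and 0.0223 over all probe sets). Psmb6, Psmb9, Psmb10 and Psme3ip1 had 1 probe set each, so that no second reading of them was available here.

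**Figure D5:**
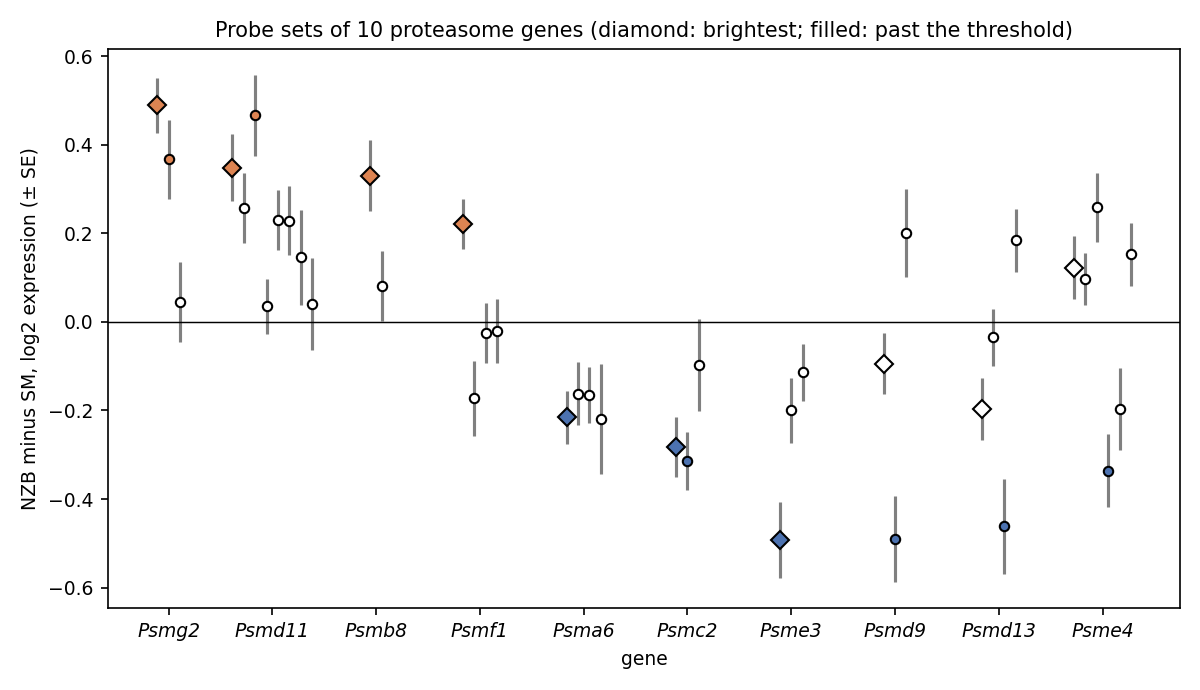
Difference in log2 expression, NZB minus SM, with its SE, for every probe set of 10 genes. The diamond is the brightest probe set of a gene, orange and blue mark probe sets higher or lower in NZB past the threshold over all probe sets, and white ones did not pass. The 8 probe sets of Psmd11 all lie above 0, and the 3 dimmer ones of Psmf1 lie below 0 while its brightest lies at 0.22.

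Genes that work with the immunoproteasome in antigen presentation were split. Of 12 measured genes of MHC class I presentation, NZB was higher for 4 and lower for 3 and the other 5 missed the threshold, with a median difference of 0.061. The called share was 58.3%, beside 21.0% of all genes. The higher ones were Tap1, the chaperones Pdia3 (0.34, SE 0.062, adjusted p = 0.0047) and Calr (0.30, SE 0.059, adjusted p = 0.0068), and Canx (0.29, and 0.58 without marked probe sets), named after its value was seen. The lower ones were Nlrc5, a transactivator of class I genes (-0.75, SE 0.097, adjusted p = 0.00083), the class I heavy chain H2-K1 (-0.55, SE 0.063, adjusted p = 0.00043), and the peptide-trimming protease Erap1 (-0.34, SE 0.077, adjusted p = 0.0133). The Erap1 call ended without SM replicate 2 (adjusted p = 0.0547). H2-K1 belongs to a family of near-identical, highly variable genes, so its reading is uncertain. The probes of the other genes, Psmb6, Psmb8, Psmb9 and Tap1 included, were not checked for sequence differences between the strains either.

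Of 22 measured genes of the interferon gamma response, NZB was higher for 5 and lower for 2 and the other 15 missed the threshold, with a median of 0.13. The called share was 31.8%, beside 21.0% of all genes. Gbp6 encodes a guanylate-binding protein and read 4.67-fold higher (2.22, SE 0.16, adjusted p = 3.6e-05). The GTPase gene Ifi47 was 2.09-fold higher (1.06, SE 0.097, adjusted p = 0.00012) and the chemokine gene Cxcl9 was 2.43-fold higher (1.28, SE 0.34, adjusted p = 0.0255). The Cxcl9 call ended without SM replicate 2 (0.0863) or SM replicate 3 (0.0616) and with trended, robust variances (0.145), and its difference was 0.83 without NZB replicate 3 and 0.77 with the mean of its probe sets. The other higher genes, named after their values were seen, were Iigp1 (0.41, adjusted p = 0.0183) and Irf1 (0.35, adjusted p = 0.0161), a factor that drives immunoproteasome genes. Iigp1 lost its call without NZB replicate 3 (0.0766), and Irf1 without SM replicate 2 (0.0618), NZB replicate 2 (0.0541) or NZB replicate 3 (0.0682). The lower genes were Gbp3 (-0.46, SE 0.099, adjusted p = 0.0109, and 0.0508 without SM replicate 2) and the kinase gene Jak1 (-0.34, SE 0.059, adjusted p = 0.0040). With the mean of its probe sets Jak1 differed by -0.17 (adjusted p = 0.155).

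Partners and regulators of the proteasome were lower in NZB in 3 of 16 cases and did not pass in 13, with a median of -0.13. Their called share, 18.75%, lay near the 21.0% of all genes, of which 12.6% were lower and 8.47% higher. Rad23b, which shuttles ubiquitin-tagged proteins to the proteasome, was 1.33-fold lower (-0.41, SE 0.079, adjusted p = 0.0058). Averaging its probe sets gave a difference of -0.20 (adjusted p = 0.0453). The shuttle gene Ubqln1 (-0.24, SE 0.074, adjusted p = 0.0442) and Akirin2, needed for import of proteasomes into the nucleus (-0.22, SE 0.067, adjusted p = 0.0468), lay close to the threshold. Ubqln1 passed only without SM replicate 3 or NZB replicate 2 of the fits that left out 1 array (0.0442 to 0.133 over the 6), and Akirin2 only without SM replicate 3 (0.0205 to 0.161). Quantile normalization (0.0926 and 0.176) and the mean of probe sets (0.650 and 0.271) also ended both calls. Nfe2l1, the factor that raises constitutive subunits when proteasome activity falls short, differed by -0.15 (adjusted p = 0.115). Pomp, the maturation protein of the core, differed by 0.032 (adjusted p = 0.778). Of 6 genes listed for ubiquitin and its activation, 1 was measured here, the activating enzyme gene Uba6, which differed by -0.11 (adjusted p = 0.282).

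Some markers of cells that are rich in immunoproteasomes differed between the strains, and others did not. In bulk tissue, more cells of a type and more RNA per cell cannot be told apart. Of 11 measured leukocyte, T and NK cell markers, NZB was higher for 6 and the other 5 missed the threshold. The summed signal of the 11 was 10.3 to 10.4 in SM and 10.6 to 10.7 in NZB on the log2 scale. The 5 that missed were Cd8a (-0.0099), Cd8b1 (-0.041), Cd4 (0.10), Ncr1 (0.033) and Gzma (0.28). Of 12 macrophage and Kupffer cell markers, 9 were higher and 1 lower, and the summed signal was 13.2 to 13.3 in SM and 13.7 to 13.9 in NZB. Marco was the lower one (-0.66), and Clec4f (0.033) and Timd4 (0.12) did not pass. Lyz2, named after its value was seen, differed by 2.32. Of 8 B and plasma cell markers, 5 were higher, with sums of 9.59 to 9.72 in SM and 12.7 to 13.7 in NZB. The antibody genes Ighm and Jchain, named after their values were seen, differed by 4.35 and 4.28, the other 6 by 0.12 to 0.48, and the median of the list was 0.34. Of 7 hepatocyte markers limma called 0 (1 at an unadjusted p under 0.05), and their sum was 17.23 to 17.25 in SM and 17.23 to 17.27 in NZB. Of 8 endothelial markers 2 were higher and 2 lower, while limma called 0 of 6 stellate and 0 of 4 cholangiocyte markers (4 and 1 at an unadjusted p under 0.05). Called shares were 54.5% of the leukocyte, 83.3% of the macrophage, 62.5% of the B cell and 50.0% of the endothelial markers, beside 21.0% of all genes. No marker is listed at 0, and 2 of the leukocyte and 4 of the B cell markers had a mean under 6, where readings are close to background. The part of these cells in the differences of Psmb8, Psmb9 and Psmb10 was not tested.

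Of the 11 called members, 8 stayed past the threshold without SM replicate 2, the exceptions being Psmb10, Psma6 and Psmf1. Psmb6, Psmb9, Psmd11, Psmg2, Psme3 and Psme3ip1 stayed past it in all 15 alternative fits. For Psmb6, Psmb9 and Psme3ip1, with 1 probe set each, the fits that average or drop probe sets kept the same readings. The count of members higher in NZB was 4 without NZB replicate 2 and 4 without NZB replicate 3. The count of lower members was 8 without SM replicate 3 and 2 without NZB replicate 1. The titles number the arrays of a strain as biological replicates. The p-values set each strain difference against the spread between these arrays, which limma draws toward the spread typical of all genes.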

How the data were processed

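Liver RNA of 3 SM and 3 NZB mice was measured with 1 single-colour array each. The deposited values are log2 expression made by the authors with RMA, per the submitters' processing notes, which gives background-corrected, normalized probe set summaries. The sources used here name no settings, and log2 was read from the maximum, 14.9, which lies between the natural log and log2 limits of a 16-bit scanner (11.1 and 16). RMA compresses small differences of dim probe sets, and bright ones can saturate. Nothing was renormalized. Symbols were updated through Entrez IDs with RefSeq (GRCm38.p6), which changed 0 member symbols. For NZB against SM, lmFit and eBayes of limma 3.58.1 (R 4.3.3) gave two-sided p-values, adjusted by Benjamini-Hochberg across 18193 genes (threshold 0.05) and, separately, across 45037 probe sets. The method was tested on simulated data in which genes vary independently. The constitutive subunits varied together among the mice, so this does not test their calls. Named genes are the called members, the catalytic subunits, Psme1, Psme2, the largest difference of each role group, and up to 3 called genes per direction of each pathway list. Members and lists were chosen with earlier results of these data known. Marked probe sets are those whose ID ends in a letter before _at. Replicate numbers do not pair the mice by the labels.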

Additional observations from a re-analysis of the deposited data

How the results depend on the processing

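The cell markers are given from the fit on all 6 arrays only. The member counts, set medians, pairs and called genes of the members and pathway lists were recomputed in 15 alternative fits. These were quantile normalization, aligned array medians, no dim genes (mean under 6), trended and robust variances, array weights and the mean of probe sets. The rest were no marked probe sets, the replicate block, a fit over all probe sets, and 6 fits with 1 array left out. Psmb9 kept its direction and its call in all 15 fits. Psmb8 differed by 0.21 with the mean of probe sets (not past the threshold) and by 0.28 to 0.40 with single arrays left out, and without marked probe sets it had no value. Psmb10 differed by 0.21 with aligned medians and 0.24 with the replicate block (adjusted p = 0.0650 and 0.0693), and by 0.21 to 0.29 with single arrays left out. The count of higher members was 4 to 8 and that of lower members 2 to 8 with single arrays left out, and 7 were lower with array weights. Psmb8 minus Psmb5 changed by 0.16 with the mean of probe sets. Ubqln1 reversed to 0.13 without marked probe sets (adjusted p = 0.307). For these the cause was not tested. The replicate numbers are not known to pair the mice: deviations of same-numbered mice correlated across genes at 0.040, -0.072 and 0.050, and not every mouse correlated best with its own number. With the replicate block 5 members were higher and 3 lower, where 7 and 4 were without it.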
